A study of Homo sapiens with 12 samples.

Results

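The genes described here are 10 feedback genes of the MAP kinase pathways, chosen by symbol: the phosphatase genes DUSP1, DUSP4, DUSP5, DUSP6 and DUSP10, the Sprouty genes SPRY1, SPRY2 and SPRY4, and the Sprouty-related genes SPRED1 and SPRED2. All 10 were found among the 18798 rows left in the deposited table once exact repeats were dropped, and all 10 passed the filter on low values. RNA was sequenced from the established human lines HuH-28, RBE and SSP-25, all derived from intrahepatic cholangiocarcinoma (ICC), a cancer of bile ducts within the liver. Each line received 45 pmol per well of scrambled control siRNA or of siRNA against LKB1, the kinase encoded by STK11, and RNA was taken at 48 h. Each of the 6 groups had 2 libraries, and separate cultures are not stated, so the p-values cover the spread between libraries, which may be technical. The knockdown was transient, and STK11 mRNA was lowered rather than removed. The libraries included no other siRNA condition and no rescue of LKB1. Effects of the siRNA itself thus cannot be told apart from those of lowering LKB1. HuH-28 was grown in MEM and the other 2 lines in RPMI1640, so line and medium cannot be told apart.

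Signals from growth factor receptors pass through RAS and RAF to the kinases MEK and ERK, and active ERK enters the nucleus and induces genes that shut the signal down again. The DUSP proteins remove phosphate from MAP kinases: DUSP6 acts on ERK in the cytoplasm and DUSP5 on ERK in the nucleus, DUSP1 and DUSP4 are nuclear enzymes that act on ERK, JNK and p38, and DUSP10 prefers JNK and p38. Sprouty and SPRED proteins act higher up, between the receptor and RAF, and SPRED proteins bring neurofibromin, the product of NF1, to RAS at the membrane. Because ERK induces many of these genes, their mRNA is widely used as a readout of the pathway in tumor cells.

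The deposited values are normalized reads per kilobase, called signal here, in which the authors divided out transcript length. Signals added up to 9909640 to 11726700 per library, with no depth given. With LKB1 siRNA, STK11 lay below the controls of the same line in all libraries, with signals of 61.8 to 223 against 430 to 698 over the 3 lines. The biliary keratin KRT7 was found in every library (2406 to 14980). EPCAM, another biliary marker, was at most 1.31 in HuH-28. Of the hepatocyte markers, ALB was at most 1.34 in any library, while SERPINA1 was at 1113 to 1553 in RBE and 140 to 193 in HuH-28. The fibroblast collagen COL1A1 was at 12720 to 18630 in HuH-28 and 6538 to 11340 in SSP-25, against 43.5 to 67.9 in RBE. Of the same list, HuH-28 had COL1A2 at no more than 3.24 and DCN at 1933 to 2719, and SSP-25 had them at no more than 30.5 and 0.357. Expression was compared with limma on log2(signal + 0.5) over 16146 genes, with p-values adjusted over all of them. A gene passed at an adjusted p under 0.05. All fold changes carry that offset of 0.5, which makes the change of a low gene look smaller.

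With LKB1 siRNA the phosphatase genes DUSP1, DUSP4 and DUSP5 rose in all 3 lines, and the 3 Sprouty genes all passed as higher in SSP-25. In all, 5 of the 10 genes were higher in HuH-28 and 0 lower, 5 were higher and 1 lower in RBE, and 9 were higher and 0 lower in SSP-25. Over all genes tested HuH-28 had 14.3% higher and 15.5% lower, RBE had 22.1% and 18.6%, and SSP-25 had 21.1% and 21.1%. On average over the lines 8 of the 10 were higher and 0 lower, where 27.3% of all genes were higher and 25.2% lower. For the lines HuH-28, RBE and SSP-25, the 10 genes had median log2 fold changes of 0.43, 0.50 and 0.64, beside 0.01, 0.01 and 0.02 over all genes. Libraries of the 2 siRNAs did not overlap, with LKB1 siRNA higher in each line, for 5 of the 10 genes (DUSP1, DUSP4, DUSP5, DUSP10 and SPRY1), which was so for 13.6% of all genes. Line by line, the LKB1 siRNA libraries lay above the controls for 7 genes (HuH-28), 6 genes (RBE) and 9 genes (SSP-25, against 28.7%, 38.6% and 37.8% of all genes), and below them for 1, 3 and 0 (28.4%, 33.7% and 36.1%). In bulk RNA, a change in every cell cannot be told apart from a change in the share of cells that express a gene.

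**Figure D1:**
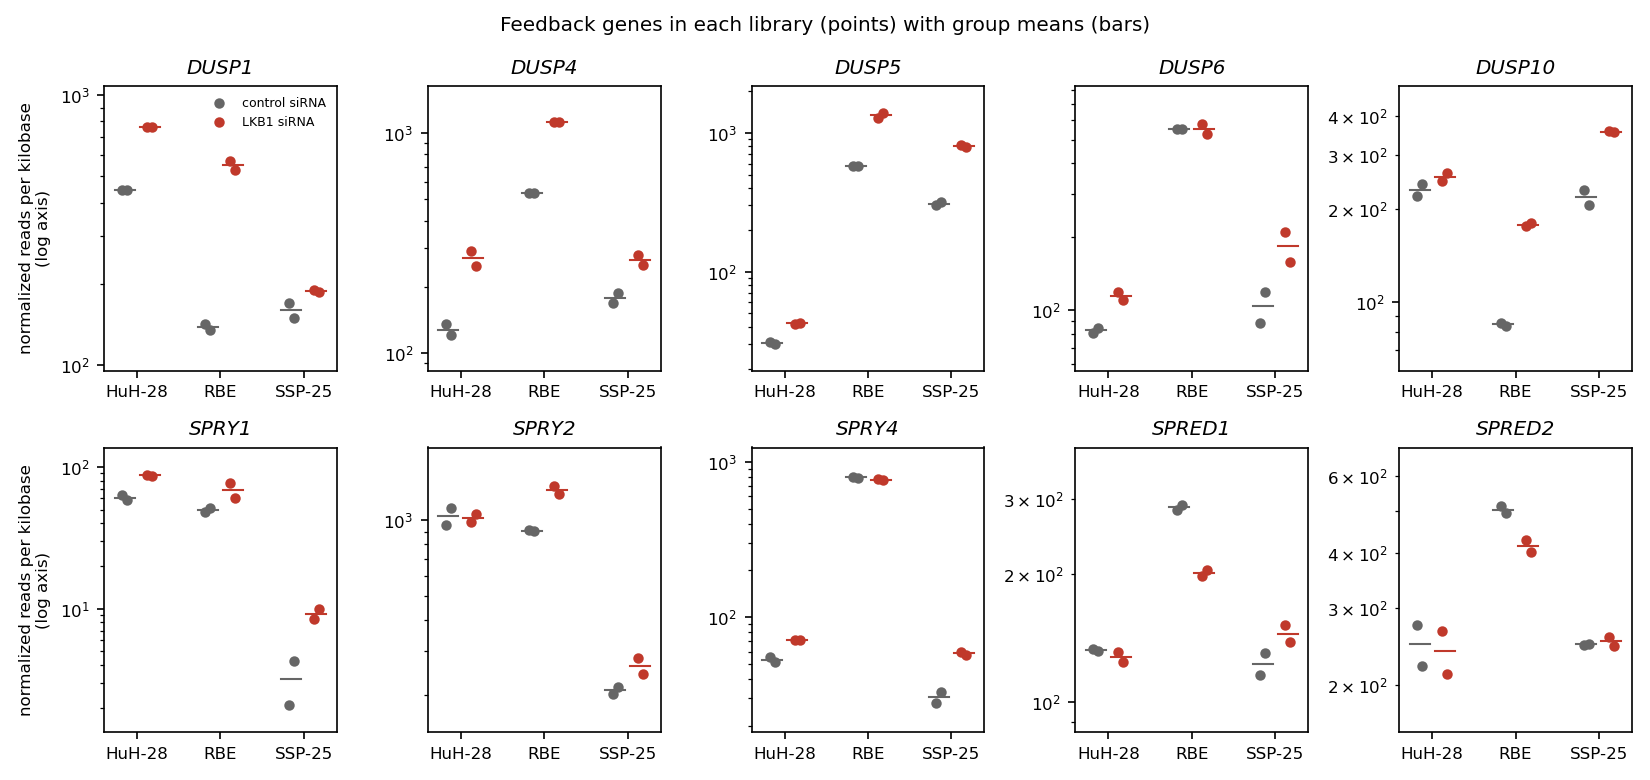
Signal (normalized reads per kilobase, log axis, a separate range for each gene) of the 10 feedback genes in the 12 libraries, grouped by cell line. Gray points are control siRNA libraries, red points LKB1 siRNA libraries, and bars the means of 2. The red points of DUSP1, DUSP4, DUSP5, DUSP10 and SPRY1 lie above the gray points in every line.

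DUSP1 encodes an immediate early phosphatase that growth factors, stress and cAMP induce. Its signal was 446 and 445 in the control libraries of HuH-28, and 764 and 761 with LKB1 siRNA. In RBE the control libraries had 142 and 135 and the LKB1 siRNA libraries 570 and 529. In SSP-25 the signals were 170 and 150 with control siRNA, and 189 and 186 with LKB1 siRNA. All LKB1 siRNA libraries were thus above the controls of their line, by a wide gap in RBE and a narrow one in SSP-25. HuH-28 showed a rise of DUSP1 of 0.77 on the log2 scale, RBE of 1.99 and SSP-25 of 0.23, each with a standard error of 0.07 (limma adjusted p of 3.8e-05, 7.3e-08 and 0.02). Leaving out the second control library of SSP-25 took its value to 0.14 (limma adjusted p = 0.16), and leaving out the first or second LKB1 siRNA library gave 0.22 and 0.24 (0.091 and 0.068), so that it no longer passed. The rise in RBE exceeded that in HuH-28 by 1.21 and the rise in SSP-25 was below that in RBE by 1.75 on the log2 scale (limma adjusted p of 1.3e-04 and 1.3e-05).

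The promoter of DUSP1 is shown because the gene is a known target of CREB, a factor that binds the cAMP response element (CRE). RefSeq promoters (250 bases before to 50 after the start, GRCh38.p14) were found for 8 of the 10 genes, all but DUSP4 and DUSP5. The stretch below lies at chr5:172771216-172771375 on the reverse strand, from 180 to 21 bases before the start of DUSP1, and reads 5′ to 3′ in the direction of the gene. Capitals mark the CRE (TGACGTCA), the shorter site TGACG that forms each arm of it on either strand, and the TATA box (TATAAA).
DUSP1: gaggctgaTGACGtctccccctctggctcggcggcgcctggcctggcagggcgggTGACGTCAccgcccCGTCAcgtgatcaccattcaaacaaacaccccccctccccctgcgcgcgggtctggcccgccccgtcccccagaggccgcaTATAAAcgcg
The CRE starts 125 bases before the gene's start and contains the short site in both directions. It was found in 1 of the 8 promoters, that of DUSP1, and in 2.8% of 11733 promoters of tested genes, both strands searched. The short site was found in 4 of the 8 (DUSP1, SPRY2, SPRY4 and SPRED2) and in 31.4% of all. For comparison, the 30 bases around the short site of SPRY2 (chr13:80341299-80341328, reverse strand) and SPRY4 (chr5:142324298-142324327, reverse strand) are these.
SPRY2: ctcggatccacaTGACGccatttactgctg
SPRY4: tcttcggagccgTGACGgactgaattccct
A match is a description of the sequence only, and binding was not measured.

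DUSP4 and DUSP5, 2 nuclear phosphatases, rose in every line. DUSP4 had signals of 135 and 121 with control siRNA and 291 and 248 with LKB1 siRNA in HuH-28. In RBE these were 534 and 533 against 1125 and 1117, and in SSP-25 168 and 188 against 279 and 252. The gap between the siRNAs was wider than the spread within either group in each line. HuH-28 and RBE had the same log2 fold change of DUSP4, 1.07, and SSP-25 had 0.57 (all with a standard error of 0.09, limma adjusted p of 3.3e-05, 1.4e-05 and 7.6e-04). DUSP5 had signals of 31.1 and 30.3 with control siRNA and 41.9 and 42.8 with LKB1 siRNA in HuH-28. It went from 579 and 579 to 1287 and 1380 in RBE, and from 300.3 and 315 to 817 and 796 in SSP-25. On the log2 scale DUSP5 gained 0.46 (HuH-28), 1.20 (RBE) and 1.39 (SSP-25), with a standard error of 0.06 (limma adjusted p of 3.0e-04, 3.6e-07 and 1.7e-07). RBE and SSP-25 had larger rises of DUSP5 than HuH-28, by 0.75 and 0.93 on the log2 scale (limma adjusted p of 5.2e-04 and 1.7e-04). With HuH-28 fitted alone DUSP5 did not pass there (adjusted p = 0.069). Between RBE and SSP-25 the difference was 0.19 (95% interval 0.01 to 0.37, limma adjusted p = 0.14).

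DUSP10, the phosphatase of the set that prefers JNK and p38, was higher in RBE and SSP-25. Its signals in RBE were 86.0 and 83.9 with control siRNA and 176 and 180.3 with LKB1 siRNA, or 1.07 on the log2 scale with a standard error of 0.07 (limma adjusted p = 3.3e-06). In SSP-25 they were 231 and 206 against 357 and 354, a log2 fold change of 0.70 (adjusted p = 4.7e-05). In HuH-28 they were 220.4 and 240.3 against 246 and 262, with no overlap but close to each other, and 0.14 on the log2 scale (95% interval -0.02 to 0.31, limma adjusted p = 0.18). The HuH-28 change was smaller than that of RBE by 0.92 and of SSP-25 by 0.56 (limma adjusted p of 6.2e-04 and 0.0072).

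DUSP6, the cytoplasmic ERK phosphatase, and SPRY4 both rose in HuH-28 and SSP-25 and did not pass in RBE, where both genes were highest. DUSP6 had signals of 80.8 and 84.2 with control siRNA and 119 and 110.4 with LKB1 siRNA in HuH-28, and of 88.2 and 119 against 209 and 157 in SSP-25. In RBE they were 554 and 555 with control siRNA and 578 and 526 with LKB1 siRNA, so that the LKB1 siRNA libraries lay on both sides of the controls. SSP-25 had the largest log2 fold change of DUSP6, 0.82, followed by HuH-28 with 0.47 (standard error 0.15, limma adjusted p of 0.0017 and 0.039) and RBE with -0.01 (95% interval -0.34 to 0.33). The HuH-28 value did not pass in 8 of the 12 fits that left out a library, those without any library of HuH-28 or RBE, with log2 fold changes of 0.42 to 0.53 and adjusted p-values up to 0.14, nor without a filter (adjusted p = 0.094) or a trend (0.077). SPRY4, which encodes a Sprouty protein that restrains RAF activation, had signals of 55.0 and 51.7 against 71.1 and 70.8 in HuH-28, and of 27.8 and 33.0 against 59.5 and 57.4 in SSP-25. In RBE they were 806 and 789 against 779 and 761, slightly lower with LKB1 siRNA and not overlapping. SPRY4 likewise had 0.94 in SSP-25 and 0.41 in HuH-28 as log2 fold changes (standard error 0.09, limma adjusted p of 2.1e-05 and 0.0056), and RBE had -0.05 (95% interval -0.24 to 0.14). Fitting HuH-28 alone gave SPRY4 an adjusted p of 0.063. The change of SPRY4 was larger in SSP-25 than in RBE by 0.99, and its difference RBE minus HuH-28 was -0.46 (limma adjusted p of 6.8e-04 and 0.035). For DUSP6 the difference between SSP-25 and RBE was 0.83 (limma adjusted p = 0.023) and that between RBE and HuH-28 was -0.48 (adjusted p = 0.17).

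SPRY1 passed in SSP-25 alone among the lines, and SPRY2 in RBE and SSP-25. SPRY1, another inhibitor of receptor signaling, was close to the lower end of the signal in SSP-25, at 2.10 and 4.29 with control siRNA and 8.43 and 9.90 with LKB1 siRNA. Its log2 fold change there was 1.45 (standard error 0.25, limma adjusted p = 0.0012), and it ranged from 1.01 to 1.89 when single libraries were left out. In HuH-28 SPRY1 had 62.9 and 57.9 against 87.4 and 86.4, and in RBE 47.8 and 51.5 against 77.2 and 60.8. These groups did not overlap, and the log2 fold changes of 0.52 and 0.46 did not pass (95% intervals -0.04 to 1.08 and -0.10 to 1.02, limma adjusted p of 0.15 and 0.18). Without either control library of SSP-25 both did, with adjusted p-values of 0.032 and 0.034 in HuH-28 and 0.039 and 0.041 in RBE. SPRY2 had the highest signal of the set with control siRNA in HuH-28 and in RBE. It had 958 and 1121 against 980 and 1060 in HuH-28, where the groups overlapped. The signals went from 916 and 901 to 1363 and 1271 in RBE and from 203 and 215 to 281 and 242 in SSP-25. RBE had a log2 fold change of SPRY2 of 0.53 and SSP-25 of 0.32 (standard error 0.09, limma adjusted p of 0.001 and 0.017), whereas HuH-28 had -0.02 (95% interval -0.23 to 0.18). The call of SPRY2 in SSP-25 was lost when either first library of that line was left out, the control (0.28, limma adjusted p = 0.10) or the LKB1 siRNA one (0.21, 0.14).

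SPRED1 and SPRED2 stood apart from the other genes in that neither was higher on average. SPRED1, whose protein brings neurofibromin to RAS, had 282 and 290.2 with control siRNA and 197 and 204 with LKB1 siRNA in RBE, which is -0.51 on the log2 scale with a standard error of 0.08 (limma adjusted p = 5.3e-04). It was the 1 gene of the set that passed as lower in any line. In SSP-25 it had 116 and 130.2 against 151 and 138, a log2 fold change of 0.24 (adjusted p = 0.034), and in HuH-28 134 and 132 against 131.5 and 124 (-0.06, 95% interval -0.23 to 0.12). The call in SSP-25 was lost on leaving out its first control library (0.15, limma adjusted p = 0.23), its first LKB1 siRNA library (0.17, 0.2) or the second control of RBE (0.24, 0.05). Quantile normalization and scaling to the same median ended it as well (adjusted p of 0.074 and 0.056). The changes in SSP-25 and RBE differed by 0.75 (limma adjusted p = 0.0016). SPRED2 had 513 and 493 against 428 and 404 in RBE, a log2 fold change of -0.28 (95% interval -0.53 to -0.02, limma adjusted p = 0.084). That value passed without any single library of HuH-28 (adjusted p of 0.036 to 0.044) and with RBE fitted alone (0.0032). In HuH-28 and SSP-25 the groups of SPRED2 overlapped, with log2 fold changes of -0.05 and 0.02. On average over the lines SPRED1 had -0.11 and SPRED2 -0.10 (limma adjusted p of 0.062 and 0.23). These averages passed for SPRED1 without the first control or the first LKB1 siRNA library of SSP-25 (-0.14 and -0.13, adjusted p of 0.029 and 0.046), and for SPRED2 without the first LKB1 siRNA library of HuH-28 (adjusted p = 0.044).

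**Figure D2:**
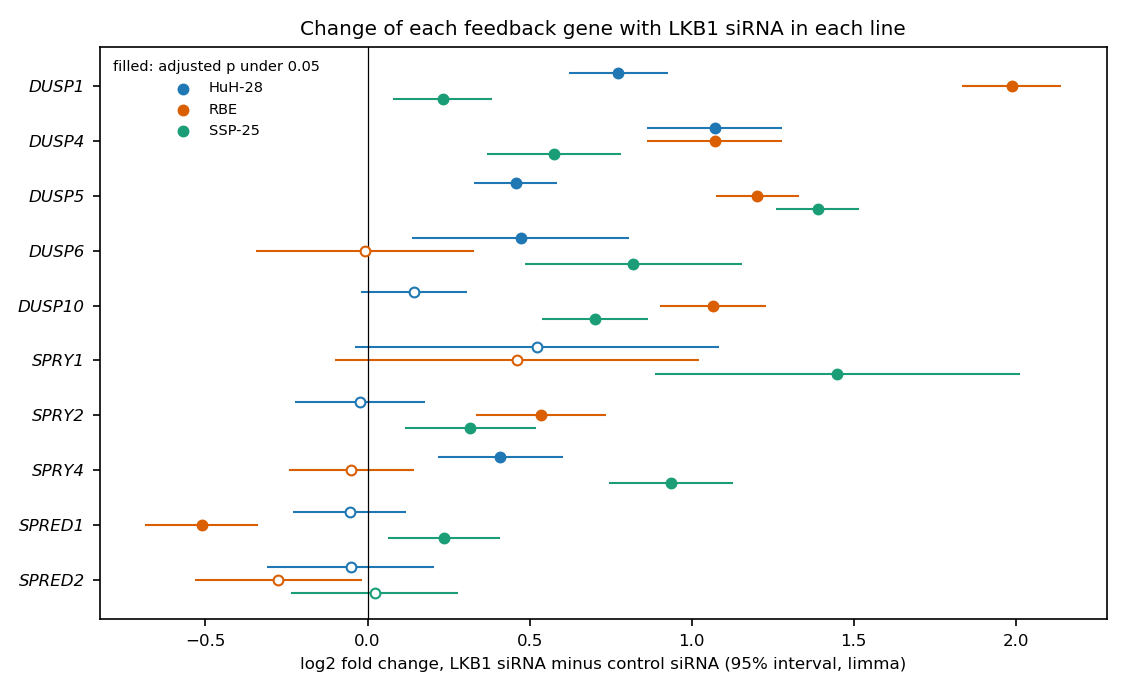
Log2 fold change (LKB1 siRNA minus control siRNA) of each feedback gene in HuH-28 (blue), RBE (orange) and SSP-25 (green), with 95% intervals from limma. Filled points have an adjusted p under 0.05. DUSP1 reaches 1.99 in RBE against 0.23 in SSP-25, while DUSP6 and SPRY4 are near 0 in RBE.

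By group, 4, 4 and 5 of the 5 phosphatase genes were higher in the lines HuH-28, RBE and SSP-25. Of the 3 Sprouty genes 1, 1 and 3 were higher, where 14.3%, 22.1% and 21.1% of all genes were. Rises beyond 1 on the log2 scale numbered 1 among the 10 genes for HuH-28, 4 for RBE and 2 for SSP-25, where 2.56%, 5.55% and 6.11% of all genes did, and DUSP5 did so on average (3.13%). Averaged over the lines, the log2 fold changes were 1.02 for DUSP5, 1.00 for DUSP1, 0.91 for DUSP4, 0.81 for SPRY1, 0.64 for DUSP10, 0.43 for DUSP6, 0.43 for SPRY4 and 0.28 for SPRY2. Exchanging siRNA labels inside each line, an exact two-sided permutation test with 216 arrangements, gave its smallest possible p of 0.0093 for DUSP1, DUSP4, DUSP5, DUSP10 and SPRY1. Any gene that is higher with LKB1 siRNA without overlap in each line must reach that p. Of all genes 13.6% were so, and for these 5 genes the p adds nothing to the lack of overlap. The permutation test gave 0.037 for DUSP6, 0.046 for SPRY2, 0.056 for SPRY4, 0.27 for SPRED1 and 0.24 for SPRED2, without adjustment for the number of genes. The size of the change differed between lines for 8 of the 10 genes, all but SPRY1 and SPRED2 (limma's F test, 28.2% of all genes). Taken in pairs, RBE and HuH-28 differed in the change of 6 genes, SSP-25 and HuH-28 of 5 and SSP-25 and RBE of 6 (14.0%, 16.8% and 20.2% of all genes). The depth of the knockdown differed between lines too, by the same F test of STK11 (adjusted p = 0.0013). Its part in the differences between lines was not tested. The count by the F test, 8 in the main fit, was 5 without a filter or a trend, where DUSP4, DUSP6 and SPRY2 no longer passed. It was also 5 without either control library of RBE or its first LKB1 siRNA library. SPRY2 on average did not pass when RBE was left out (0.15, adjusted p = 0.13).

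Summed marker levels of several cell types differed between the siRNAs. The sum of 5 biliary markers was 2607 to 2688 with control siRNA and 3111 to 3278 with LKB1 siRNA in HuH-28, 27140 to 28530 and 25840 to 26000 in RBE, and 7040 to 7362 and 10640 to 10860 in SSP-25. The sum of 5 fibroblast markers was 18040 to 18480 and 21280 to 22270 in HuH-28, 53.6 to 55.1 and 75.3 to 80.8 in RBE, and 6605 to 7014 and 11100 to 11500 in SSP-25. COL1A1 made up most of it, and LUM, of the same list, was lower with LKB1 siRNA without overlap in HuH-28 (2174 and 2575 against 1642 and 2142) and in SSP-25 (27.0 and 29.5 against 14.98 and 20.1). The sum of 5 hepatocyte markers was 1123 to 1263 and 1557 to 1569 in RBE, 149 to 178 and 141 to 193 in HuH-28, and at most 4.94 in SSP-25. The sum of 4 leukocyte markers was 830 to 1969 over all libraries, most of it CD68 (723 to 1967), while PTPRC was at most 6.59. The sum of 3 endothelial markers was at most 15.2. The part of these shifts in the results above was not tested.

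With control siRNA the lines differed in most of these genes, as they did in most of all genes tested. RBE had the highest mean in 6 of the 10 and HuH-28 in the other 4, and the shares of all genes for this were not counted. Between RBE and HuH-28 8 of the 10 genes differed, between SSP-25 and HuH-28 6, and between SSP-25 and RBE all 10, where 77.3%, 74.8% and 73.1% of all genes did. SPRY4 was at 797 ± 12.3 in RBE, 53.3 ± 2.37 in HuH-28 and 30.4 ± 3.64 in SSP-25 (SD, n = 2 each), a log2 difference of 3.89 between RBE and HuH-28 (limma adjusted p = 7.0e-11). DUSP6 was at 554 ± 0.506 in RBE, 104 ± 21.8 in SSP-25 and 82.5 ± 2.43 in HuH-28 (SD, n = 2 each), and the last 2 did not differ beyond their spread (0.31, 95% interval -0.02 to 0.65, limma adjusted p = 0.084). They did after quantile normalization (0.50, adjusted p = 0.009) and without the first control library of SSP-25 (0.53, 0.011). DUSP5 was ordered RBE, SSP-25 and HuH-28, with 579 ± 0.542, 308 ± 10.5 and 30.7 ± 0.547 (SD, n = 2 each), and each step passed. DUSP4 had the same order, with 533 ± 0.314, 178 ± 13.9 and 128 ± 10.2 (SD, n = 2 each), and each step passed. In RBE the control libraries of these 4 genes were thus all at 533 to 806.

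DUSP1 and DUSP10 were lowest in RBE. DUSP1 was at 446 ± 0.778 in HuH-28, 160 ± 14.2 in SSP-25 and 138 ± 5.09 in RBE (SD, n = 2 each), and the step from RBE to SSP-25 of 0.21 on the log2 scale passed (limma adjusted p = 0.02). Leaving out the second control of RBE or the first of SSP-25 ended that call (0.17 and 0.12, limma adjusted p of 0.11 and 0.18). DUSP10 was at 230 ± 14.1 in HuH-28 and 219 ± 17.5 in SSP-25, which did not differ beyond their spread (limma adjusted p = 0.37), and at 85.0 ± 1.5 in RBE (SD, n = 2 each). With LKB1 siRNA both genes rose most in RBE, and DUSP1 reached 549 ± 28.6 there, against 762 ± 2.22 in HuH-28 (SD, n = 2 each). SPRY1 and SPRY2 were lowest in SSP-25, where the log2 difference from HuH-28 was -4.11 for SPRY1 and -2.31 for SPRY2 (limma adjusted p of 1.5e-07 and 5.8e-09), and neither passed between RBE and HuH-28 (adjusted p of 0.33 and 0.078). Without the first control library of HuH-28, SPRY2 was 0.30 lower in RBE than in HuH-28 on the log2 scale (adjusted p = 0.016). SPRED1 and SPRED2 were about as high in HuH-28 as in SSP-25 (limma adjusted p of 0.21 and 0.96), and RBE exceeded HuH-28 by 1.10 and 1.03 on the log2 scale.

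**Figure D3:**
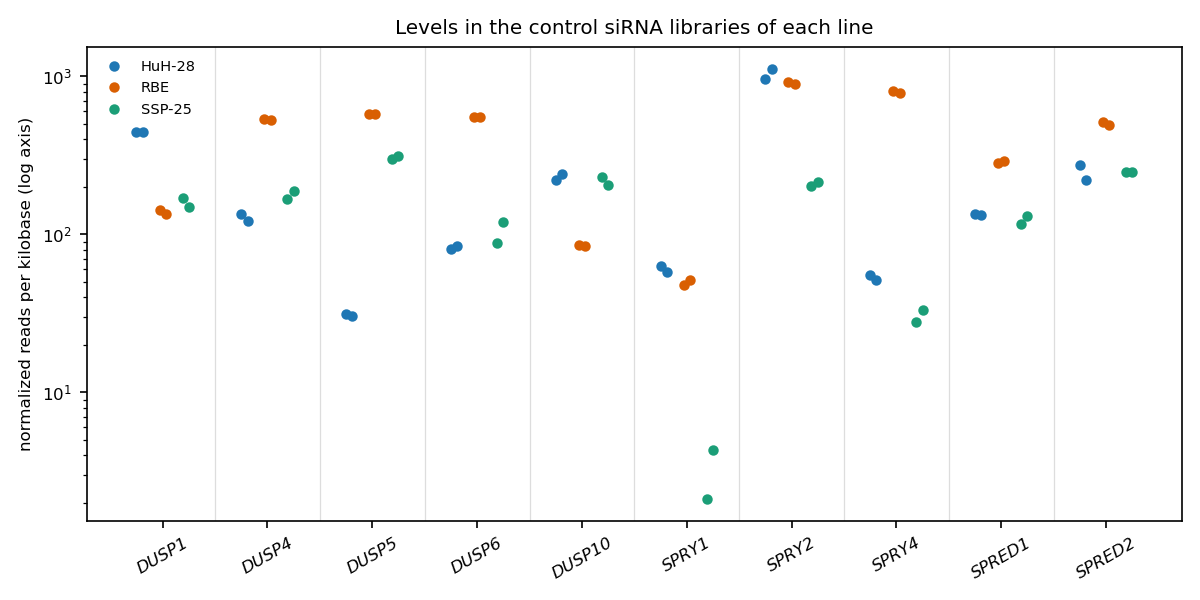
Signal (normalized reads per kilobase, log axis) of the 10 feedback genes in the control siRNA libraries of HuH-28 (blue), RBE (orange) and SSP-25 (green), 2 points per line. SPRY4 in RBE lies at 789 and 806 against 27.8 to 55.0 in the other lines, while SPRY1 in SSP-25 lies at 2.10 and 4.29.

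Genes whose log2 signal was most like that of DUSP6 over the 12 libraries were C5, FOXA1 and INPP5F (Pearson r of 0.991, 0.989 and 0.989 among 12230 genes whose mean signal reached 20). Those most like SPRY4 were MAP2K6, CLMN and SORL1 (r of 0.997, 0.997 and 0.996). The points share 3 lines, and DUSP6 and SPRY4 were both far higher in RBE than in the other lines. That gap weighs heavily in these values, and likeness within a line was not tested. MAP2K6 encodes a kinase that activates p38, and its signal was 570 to 628 in RBE and 4.29 to 15.3 in the other lines.

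The other genes of the MAP kinase pathways moved in both directions. Of the 5 remaining typical MAPK phosphatases 3 were higher on average over the lines and 1 lower (27.3% and 25.2% of all genes), with a median log2 fold change of 0.61. DUSP2, a nuclear phosphatase, had 0.87, DUSP8, which acts on JNK and p38, had 0.76 and DUSP9 had 0.61, while DUSP7 fell by 0.41 on the log2 scale (limma adjusted p of 3.0e-04, 3.1e-04, 0.011 and 5.5e-05). DUSP8 rose by 1.92 in RBE, and had 0.09 in HuH-28 and 0.27 in SSP-25. DUSP9 was at 0.644 to 3.88 in HuH-28, the line where it passed. Of 9 atypical and other dual-specificity phosphatases 0 were higher and 6 lower on average, beside the same 27.3% and 25.2%, and the median was -0.16. DUSP3, DUSP22, DUSP19 and DUSP11 fell by 0.46, 0.54, 0.80 and 0.16 on the log2 scale. SPRED3, the remaining SPRED gene, rose in each line (HuH-28 by 1.23, RBE by 0.93, SSP-25 by 1.01), from a signal of 7.01 to 32.8 with control siRNA to 13.9 to 65.7 with LKB1 siRNA. SPRY3, the remaining Sprouty gene, fell by 0.41 on average (limma adjusted p = 0.011).

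In the ERK cascade itself, 8 of 19 genes were higher and 4 lower on average (27.3% and 25.2% of all genes), with a median of 0.13. NRAS, a RAS gene, and MAP2K1, which encodes MEK1, fell in each line, and MAPK3, which encodes ERK1, rose in each. NRAS had signals of 1534 and 1599 with control siRNA and 595 and 694 with LKB1 siRNA in HuH-28, 824 and 921 against 268 and 226 in RBE, and 1486 and 1651 against 508 and 487 in SSP-25. It fell by 1.59 on the log2 scale on average (limma adjusted p = 2.0e-08). MAP2K1 went from 784 to 1115 over the control libraries to 432 to 622 over the LKB1 siRNA libraries, and fell by 0.89 on average (adjusted p = 6.9e-09). MAPK3 went from 121 to 192 to 320 to 428 over the same libraries, a log2 fold change of 1.36 (adjusted p = 5.5e-08). SHC1, an adaptor between receptors and RAS, had 0.59. The directions thus differed along the cascade.

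Other transcripts that ERK is known to induce did not move as one. Of 22 tested 10 were higher and 3 lower on average (27.3% and 25.2% of all genes), with a median of 0.12. The urokinase receptor PLAUR had 0.81, the ephrin receptor EPHA4 1.25 and PHLDA1, another feedback gene of receptor signaling, 0.44, while HBEGF, a ligand of the EGF receptor, fell by 0.62 on the log2 scale (limma adjusted p of 4.0e-07, 3.4e-06, 4.1e-06 and 8.0e-07). EPHA4 went both ways, at -0.69 (HuH-28), 1.93 (RBE) and 2.50 (SSP-25). In HuH-28 6 of the 22 were higher and 4 lower (14.3% and 15.5% of all genes), in RBE 11 and 5 (22.1% and 18.6%), and in SSP-25 6 and 6 (21.1% each way).

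Of 15 other negative regulators of RAS and ERK 7 were higher and 4 lower on average (27.3% and 25.2% of all genes), with a median of 0.14. NF1, the RAS GTPase-activating protein that SPRED proteins recruit, had 0.60 on average and 1.12 in SSP-25, and DAB2IP, another such protein, had 0.65. RASA2, of the same class, fell by 0.87 on the log2 scale, and ERRFI1, an inhibitor of the EGF receptor, fell by 0.24. Of 13 JNK and p38 kinases and their activating kinases, the pathways on which DUSP1 and DUSP10 act, 4 were higher and 5 lower on average, beside the same shares of all genes, with a median of 0.03. MAPK14, which encodes p38α, had 0.41 and MAP3K7 had 0.27, while MAPK12 fell by 0.59 and MAPK9 by 0.33 on the log2 scale.

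**Figure D4:**
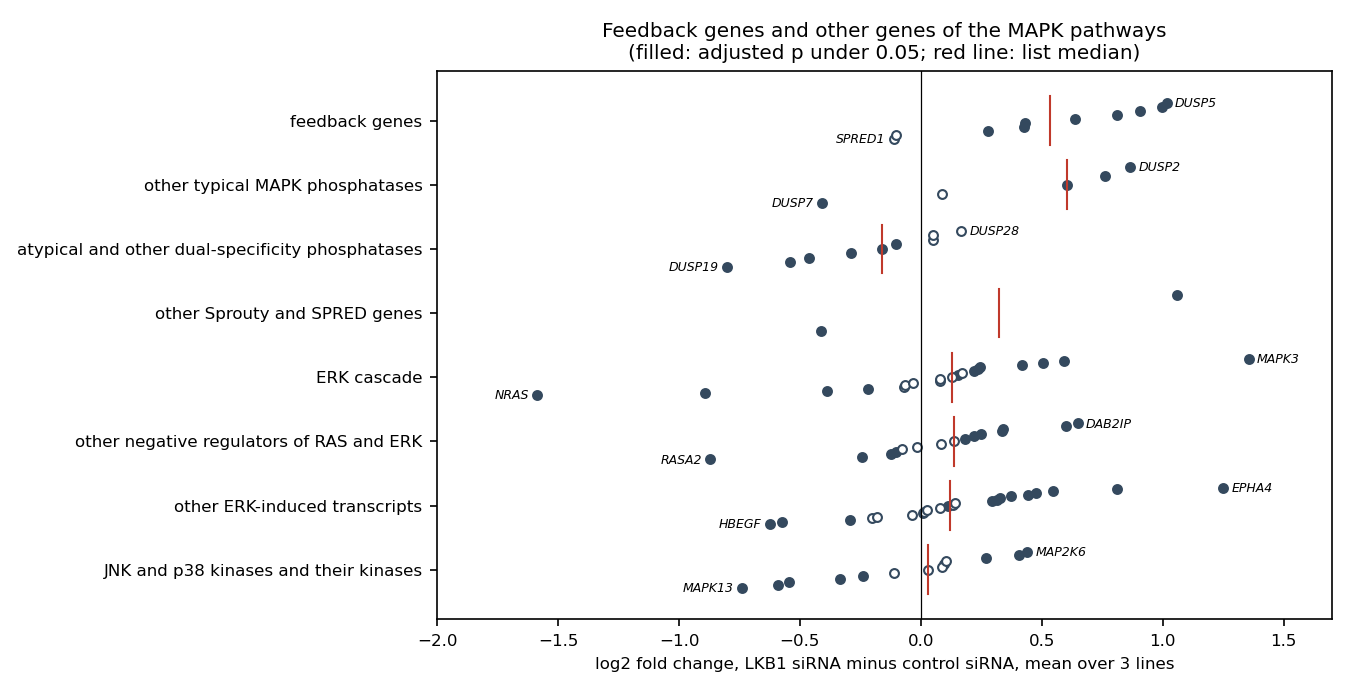
Mean log2 fold change over the 3 lines (LKB1 siRNA minus control siRNA) of the 10 feedback genes and of 7 lists of related genes, 1 point per gene. Filled points have an adjusted p under 0.05, red lines are list medians, and the outermost genes of longer lists are named. The median of the feedback genes is 0.53 and that of the ERK cascade 0.13, with NRAS at -1.59 and MAPK3 at 1.36.

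The 3′ UTRs of the 10 genes were also searched for 2 words of 7 bases, picked because earlier results of these data had them. Of the longest GENCODE v29 3′ UTRs of 14926 genes, 4.99% held GCAGTAC and 21% held the other, GAAGGAA. The first was found in 0 of the 10 feedback genes, and the second in 4 of them (DUSP5, SPRY4, SPRED1 and SPRED2). On average over the lines, genes with the first had a median log2 fold change of 0.26 and genes without it 0.02. For the second these medians were -0.01 and 0.04. Because the words were picked from results of these same data, the medians are no separate test of them.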

How the data were processed

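The authors sequenced TruSeq RNA V2 libraries, a kit that does not mark strand, with single reads. Per the labels, TopHat 1.2.0, edgeR and the build hg19 were used, whereas the paper's methods have NextGENe with an older build and RefSeq mRNA. The sources used here do not say which produced the table. The deposited signal is normalized reads per kilobase, with no read counts, so depth and counting intervals are unknown. Of 18815 rows, 17 exact repeats were left out.

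limma 3.58.1 (R 4.3.3) was run on log2(signal + 0.5) for the 16146 genes that reached a signal of 1 in 2 or more libraries, with a mean per group (6 residual degrees of freedom), eBayes with trend, and Benjamini-Hochberg adjustment over all of them. Because 2 libraries against 2 allow no exact p under 0.33, tests within a line rest on the pooled spread. Replicates lay further apart in HuH-28, with median absolute log2 differences of 0.15 (control siRNA) and 0.16 (LKB1 siRNA), against 0.078 to 0.084 in RBE and SSP-25. The pooled standard error of a gene is the same for all lines. It can thus be too small for HuH-28 and too large for the other lines. The single-gene permutation was exact and two-sided. The scripts were tested on simulated data. Promoters and UTRs came from RefSeq and GENCODE v29. The members, gene lists and UTR words were chosen with earlier results of these data known. Named genes were all 10 members, STK11, up to 4 genes per list with the smallest average p, and the 3 genes most like DUSP6 and SPRY4, beside the cell type markers. Alternatives were other pseudocounts, filters and scalings, no trend, lines fitted alone, a replicate block, and leaving out each library or line. The level of 1 biliary marker is not reported here.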

Additional observations from a re-analysis of the deposited data

Results flagged for a closer look

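The change with LKB1 siRNA differed between the lines for 8 genes by limma's F test. The adjusted p was 3.4e-05 for DUSP1, 0.025 for DUSP4, 1.7e-04 for DUSP5, 0.0399 for DUSP6, 7.5e-04 for DUSP10, 0.024 for SPRY2, 0.0013 for SPRY4 and 0.0031 for SPRED1. DUSP1 and DUSP10 had their largest change in RBE, with log2 fold changes of 1.99 and 1.07. DUSP5, DUSP6 and SPRY4 had theirs in SSP-25, with 1.39, 0.82 and 0.94. SPRED1 passed in opposite directions, at -0.51 in RBE and 0.24 in SSP-25. The values for DUSP4, DUSP6 and SPRY2 were the nearest to 0.05. STK11 itself differed between lines by the F test (adjusted p = 0.0013), and the part of knockdown depth in these differences was not tested. Without the second LKB1 siRNA library of SSP-25, DUSP4 had an adjusted p of 0.11.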

How the results depend on the processing

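The counts of genes higher with LKB1 siRNA stayed within 1.5 times under every alternative tried. With lines fitted alone they were 4, 6 and 8. They were 4 to 6 in HuH-28, 5 to 6 in RBE and 6 to 9 in SSP-25 when single libraries were left out, and 8 on average. Genes differing between lines with control siRNA numbered 8 to 9, 6 to 7 and 9 to 10. The count lower in RBE, 1 here, was 2 after scaling to the same median, with lines fitted alone and with replicate numbers as a block, and 1 to 2 without single libraries. The count lower on average, 0 here, was 1 at a pseudocount of 10, after quantile normalization, after scaling to the same median, and leaving out HuH-28 or SSP-25, and 0 to 1 without single libraries. The count that differed between lines, 8 here, was 5 without a filter or a trend and 5 to 8 without single libraries. SPRED1, the gene added on average at a pseudocount of 10 and by both scalings, had -0.11 to -0.14 there. SPRED2 (-0.28) was the gene added in RBE.

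Replicate numbers were not taken as pairs, since deviations of same-numbered libraries went together in 1 line but not in the other 2, with correlations of 0.22 (HuH-28), 0.02 (RBE) and -0.01 (SSP-25). The replicate block moved SPRED2 in RBE past the threshold (adjusted p = 0.035) and took DUSP6 out of the test between lines (0.051), and changed no other call of the 10 genes. Scaling to the same median moved the median over all genes to 0.11 for RBE minus HuH-28 and 0.12 for SSP-25 minus HuH-28 with control siRNA.

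Values that changed sign had not passed before or after. DUSP10 and SPRED1 in SSP-25 minus HuH-28 with control siRNA had 0.037 and 0.078 after quantile normalization and 0.091 and 0.053 after scaling to the same median, and DUSP10 -0.16 to 0.0055 and SPRED2 -0.15 to 0.16 without single libraries. SPRED2 in SSP-25 had -0.013 after scaling to the same median and -0.0088 to 0.054 without single libraries. In HuH-28 SPRED2 had -0.22 to 0.11 and SPRY2 -0.14 to 0.089 without single libraries, and DUSP6 in RBE -0.075 to 0.0599. SPRED1 on average had 0.0901 leaving out RBE. No average or test between lines could be had from lines fitted alone.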
